A study of Rattus norvegicus with 6 samples.

Results

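Mitochondrial protein import and cristae genes were followed in cultured heart muscle cells. They were the genes of the deposited table whose symbol begins with Timm, Tomm, Apoo, Chchd or Mtx and a digit, or is Immt, Samm50, Pam16, Grpel1, Grpel2, Minos1, Pmpca or Pmpcb. This gave 43 genes of 21648, each with its own Ensembl identifier. The cells were neonatal rat ventricular myocytes, isolated from wild-type pups at postnatal day 3 and cultured after steps that reduce other cells, namely pre-plating and 100 µM bromodeoxyuridine. One group received 10 µM of compound 915 for 72 h (3 libraries) and the other an equal volume of its solvent, DMSO, for 72 h (3 libraries). According to the series description, 915 activates estrogen-related receptors (ERRs). ERRs are nuclear receptors that switch on many genes of oxidative metabolism in the heart, and the comparison asks how the compound changes the transcriptome. The libraries are called biological replicates, but nothing says whether they came from separate isolations. All p-values therefore rest on the spread among the 6 libraries, and that spread may be partly or wholly technical. If the libraries share an isolation, it leaves out differences between isolations, and the p-values may be too small.

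Nearly all mitochondrial proteins are made in the cytosol and imported. Precursors pass the TOM channel of the outer membrane and are then sorted. SAM builds beta-barrels into the outer membrane, small TIM chaperones and an oxidative relay serve the intermembrane space, TIM22 inserts carriers into the inner membrane, and TIM23 with its motor draws proteins into the matrix, where a peptidase removes their presequences. The MICOS complex shapes the inner membrane into cristae, the folds that carry the respiratory chain. Heart muscle is known for mitochondria with densely packed cristae.

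The table held 30639244 to 38078137 counts per 915 library and 36799845 to 40010826 per DMSO library. Levels below are CPM, counts scaled by the authors to a common library total. A count of 0 allows up to 3 counts, which correspond to between 0.0698 and 0.0917 CPM (counting error only). Defining markers matched the label of the cells: the summed level of 6 cardiomyocyte markers was 17960.0 to 18089.5 CPM in 915 libraries and 12220.1 to 13049.8 CPM in DMSO libraries, and 6 of 6 were higher with 915. Cells of other kinds were also present. The summed level of 8 fibroblast markers was 11231.1 to 11898.9 CPM with 915 and 21093.1 to 21954.9 CPM with DMSO, and 3 of the 8 were higher and 4 lower. The most abundant were lower, Col1a1 (means 6289.1 CPM with 915 and 11987.7 CPM with DMSO) and Col3a1 (2825.8 and 7067.5 CPM). Thy1 and Tcf21 were also lower, while Dcn, Pdgfra and Fbln1 were higher and Postn did not pass. For 5 smooth muscle and pericyte markers the sums were 646.9 to 697.9 CPM with 915 and 1661.1 to 1797.2 CPM with DMSO, and 4 were lower. For 7 macrophage and leukocyte markers they were 115.2 to 139.5 CPM with 915 and 217.8 to 234.4 CPM with DMSO, and 4 were lower. For 6 endothelial markers they were 49.2 to 50.6 CPM with 915 and 61.9 to 66.4 CPM with DMSO, with 4 lower and 1 higher. Erythroid markers summed to 1.97 to 2.45 CPM with 915 and 2.73 to 4.24 CPM with DMSO. No marker in the table was at 0 in every library. In bulk RNA, fewer cells of a type, less RNA per cell and a change of the marker genes alone cannot be told apart. The part of this shift in the results below was not tested.

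Most of the import and cristae genes taken by symbol were higher with 915, and none of these by as much as 2-fold. Of the 42 genes that passed the filter on low counts, 30 rose (71.4%) and 0 fell, while 24.3% of all 14253 genes tested rose and 25.5% fell, 49.8% in either direction (edgeR quasi-likelihood test, adjusted p under 0.05 over all genes tested). At an unadjusted p under 0.05 the gene counts were 33 higher and 0 lower, and DESeq2 also called 0 lower. The median log2 fold change was 0.29, a 1.22-fold difference, against -0.01 for all genes tested. Fold changes on the log2 scale ran from 0.02 to 0.86 over the 42 genes, and among the 30 called, folds ran from 1.12 to 1.81. The highest was that of the row named Chchd4, which lay under 3 CPM in every library and carries the Entrez number of a pseudogene. Among genes of at least 3 CPM in some library the highest was 0.67, that of Timm10 (1.59-fold). In 28 of the 42 genes every 915 library lay above every DMSO library, against 23.9% of all genes tested. Together the 43 genes took 2544.5 ± 29.0 CPM with 915 and 2099.5 ± 74.8 CPM with DMSO (SD, n = 3 each).

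**Figure D1:**
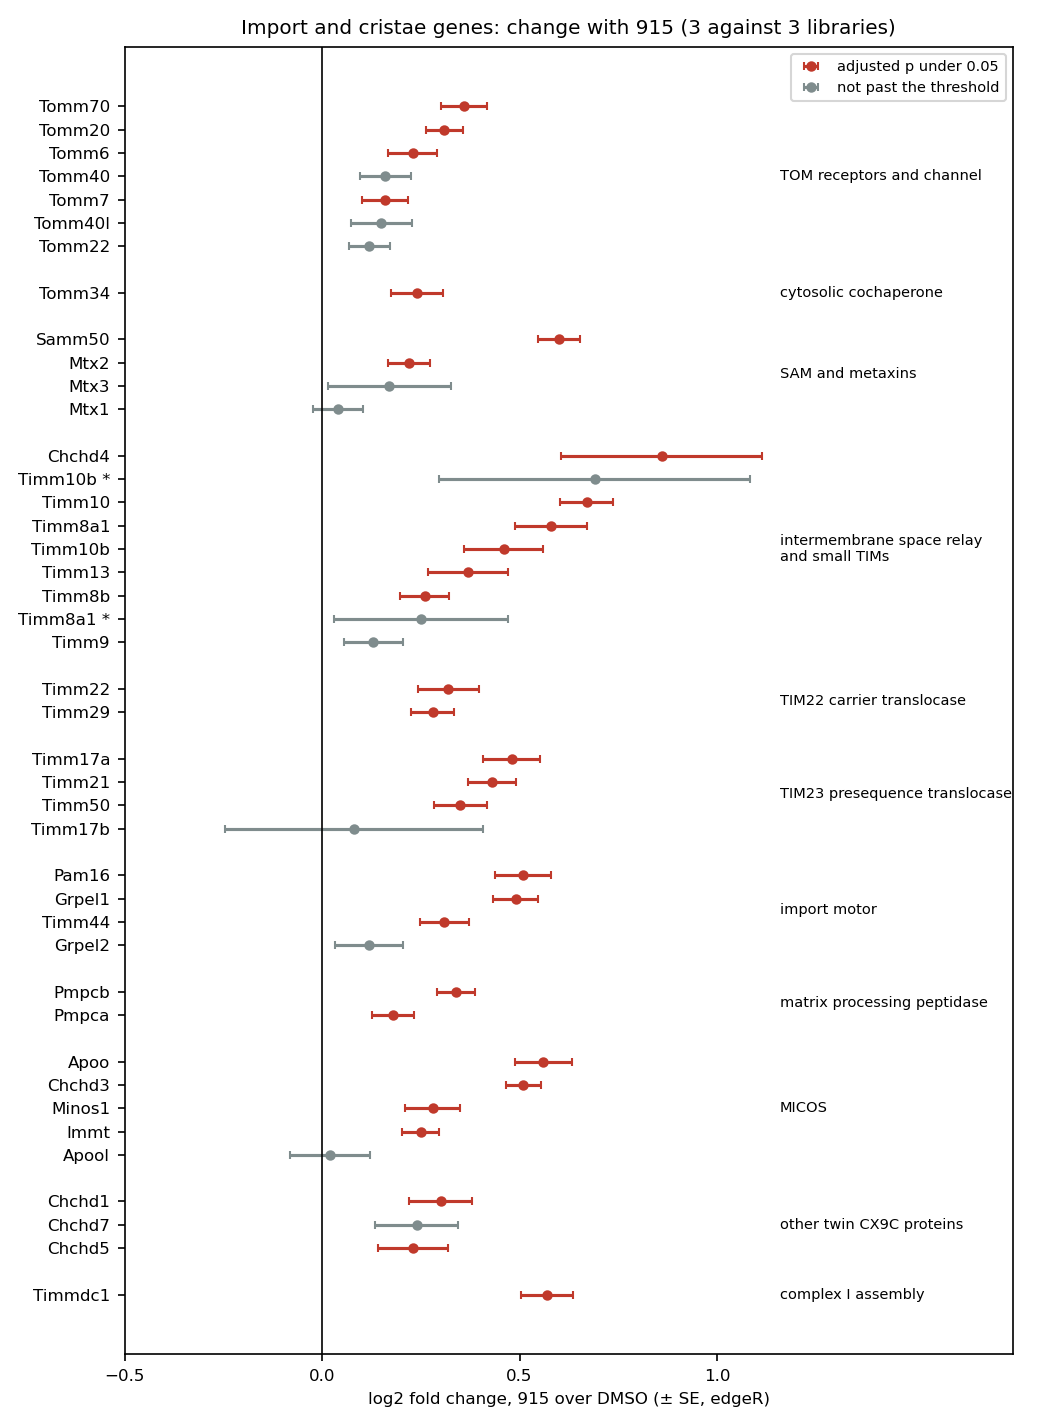
Log2 fold change of each of the 42 tested genes, 915 over DMSO, with its standard error, grouped by role; red points passed an adjusted p of 0.05 and grey points did not. Points lie between 0.02 and 0.86, and an asterisk marks the scarcer row where a symbol has more than 1 Ensembl identifier. The highest point is the row named Chchd4, which lay under 3 CPM in every library.

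At the outer membrane, 4 of the 7 TOM genes tested rose, with a median log2 fold change of 0.16 over the 7. Tomm20 (ENSRNOG00000019980), the receptor that recognises presequences, had 188.5, 190.2 and 195.9 CPM in 915 libraries 1 to 3, against 155.1, 162.2 and 160.9 CPM in DMSO libraries 1 to 3. No values of the groups overlapped, and the log2 fold change reached 0.31 ± 0.0468 (SE, edgeR adjusted p = 7.02e-05). Tomm70, the receptor for carrier precursors that arrive with cytosolic chaperones, averaged 59.9 ± 2.43 CPM with 915 and 48.3 ± 2.28 CPM with DMSO (SD, n = 3 each), 1.28-fold higher (edgeR adjusted p = 1.59e-04). The pore gene Tomm40 did not pass, at 58.4 ± 1.90 CPM with 915 and 54.1 ± 4.21 CPM with DMSO (log2 fold change 0.16 ± 0.0652, edgeR adjusted p = 0.0584). Its DMSO library 2, at 59.0 CPM, lay within the 915 range, and without that library the change was 0.23 with an adjusted p of 0.00417. Tomm40l, a relative of the pore gene, and Tomm22, the central receptor, did not pass either (log2 fold changes 0.15 ± 0.0769 and 0.12 ± 0.0523). Of the small subunits that stabilise the complex, Tomm6 rose 1.17-fold and Tomm7 1.12-fold. The groups overlapped for Tomm7, and its call was lost without 915 library 1 or 3 or DMSO library 1 (edgeR adjusted p up to 0.154), on table totals without TMM (0.132) and with the replicate block (0.0812). Tomm34, a cytosolic cochaperone of import, had 28.0, 29.2 and 30.1 CPM with 915 and 26.6, 24.9 and 24.7 CPM with DMSO, 1.18-fold higher with no overlap (edgeR adjusted p = 6.34e-03).

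Of 4 genes for the assembly of beta-barrel proteins, 2 rose. Samm50 (ENSRNOG00000011952), the barrel-forming core of SAM, had 128.6, 131.5 and 130.2 CPM in 915 libraries, against 85.0, 93.2 and 87.4 CPM in DMSO libraries. The 915 values lay close together and far above all DMSO values, a log2 difference of 0.60 ± 0.0522 (edgeR adjusted p = 3.36e-07). The metaxin gene Mtx2, whose product sits on the cytosolic face of SAM, had 61.8, 59.7 and 58.7 CPM with 915 and 51.9, 53.6 and 54.2 CPM with DMSO, 1.17-fold higher without overlap (edgeR adjusted p = 3.34e-03). Its partner Mtx1 had 40.1, 41.1 and 45.8 CPM with 915 and 42.9, 42.6 and 42.3 CPM with DMSO. The Mtx1 groups overlapped, and the log2 fold change of 0.04 ± 0.0637 did not pass (edgeR adjusted p = 0.619). It was -0.02 on table totals without TMM scaling. Mtx3, at 4.07 to 5.69 CPM over all libraries, did not pass (0.17 ± 0.156).

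The intermembrane space genes included the largest changes. Their median log2 fold change was 0.46, and 6 of 9 tested rose. The 9 include scarce rows named Chchd4 (0.86, counted among the 6), Timm10b (0.69, not called) and Timm8a1 (0.25, not called). These scarce rows lay under 3 CPM in every library and are described further on. Timm10 (ENSRNOG00000007883) encodes a subunit of the hexameric chaperone that escorts hydrophobic precursors to TIM22. It had 62.5, 63.6 and 65.1 CPM with 915, against 38.3, 45.0 and 40.8 CPM with DMSO. This was 1.59-fold higher, with a log2 difference of 0.67 ± 0.0666 (edgeR adjusted p = 1.33e-06), and the groups were well apart. Timm9, which encodes the other subunit of that hexamer, had 25.2, 21.7 and 25.0 CPM with 915 and 22.4, 23.2 and 22.5 CPM with DMSO. Its groups overlapped, and its change of 0.13 ± 0.0754 did not pass (edgeR adjusted p = 0.175). It passed without 915 library 2, the lowest, at 0.20 (edgeR adjusted p = 0.0449). Timm10b (ENSRNOG00000050846), whose product docks the chaperone on TIM22, rose 1.38-fold. Timm8a1 (ENSRNOG00000011226), the rat form of a gene mutated in human deafness-dystonia syndrome, had 15.3, 14.1 and 14.0 CPM with 915, against 9.77, 10.7 and 9.57 CPM with DMSO. The groups did not overlap, and the log2 fold change was 0.58 ± 0.0906 (edgeR adjusted p = 1.08e-04). Its close relative Timm8b had 87.4, 78.0 and 91.1 CPM with 915 and 73.3, 75.6 and 72.3 CPM with DMSO, 1.20-fold higher without overlap (edgeR adjusted p = 2.63e-03). Timm13, which works with the Timm8 proteins, had 82.3, 70.3 and 76.1 CPM with 915 and 54.0, 73.5 and 55.6 CPM with DMSO. DMSO library 2 lay inside the 915 range of Timm13, and the rise of 1.29-fold (edgeR adjusted p = 7.07e-03) was not called by DESeq2 (adjusted p = 0.0544).

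Promoter sequence was read for 35 of the genes, as 250 bases before to 50 after the annotated start, from RefSeq (assembly GRCr8). The deposited counts were made on Rnor_6.0, so coordinates of GRCr8 belong to the printed sequences alone. Promoters were searched on both strands for TNAAGGTCA, the extended core to which ERRs bind, for GCGCA and GCGC with any base between them, a motif of nuclear respiratory factor 1 (NRF-1), and for CCGGAAG, a core of ETS factors such as GABP. The ERR letters stood in 1 of the 35 promoters (2.86%), that of Timm8b, and in 0.994% of 19005 promoters of protein-coding genes. NRF-1 letters stood in 6 (17.1%), against 6.09% of the protein-coding promoters, and ETS letters in 17 (48.6%), against 11.2%. These are matches of letters and not sites of binding, and a promoter without them says nothing of the factor. The 13 rises among 16 tested genes with ETS letters (median log2 fold change 0.30) stood beside 13 among 18 without them (0.32). For NRF-1 letters, 5 of 6 tested genes with them rose (median 0.37) and 21 of 28 without them (0.31). The promoters of Timm10, whose change was the largest among genes above 3 CPM, and of Timm8b, with the ERR letters, are shown from 250 bases before the start to the start, 5′ to 3′, with matches to any of the motifs in capitals. In Timm10 (GRCr8 chr3:90314889-90315138, plus strand) the capitals are CCGGAAG on either strand, and near the start a forward and a reverse copy overlap.
Timm10: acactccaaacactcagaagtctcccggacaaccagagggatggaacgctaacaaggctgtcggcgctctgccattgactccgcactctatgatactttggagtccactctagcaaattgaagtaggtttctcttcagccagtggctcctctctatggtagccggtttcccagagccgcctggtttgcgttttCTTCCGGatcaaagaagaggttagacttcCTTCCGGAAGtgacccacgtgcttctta
In Timm8b (GRCr8 chr8:59850487-59850736, plus strand) the first run of capitals, at -139 to -131 from the start, is the ERR match and the other runs are CCGGAAG.
Timm8b: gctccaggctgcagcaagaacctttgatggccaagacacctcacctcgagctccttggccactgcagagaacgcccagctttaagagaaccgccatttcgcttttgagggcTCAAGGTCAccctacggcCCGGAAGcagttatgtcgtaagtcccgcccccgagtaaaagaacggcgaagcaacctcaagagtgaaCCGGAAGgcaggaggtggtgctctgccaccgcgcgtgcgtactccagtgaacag

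Carrier and presequence translocases of the inner membrane rose. Timm29 (ENSRNOG00000009255), an animal subunit of TIM22, had 50.1, 52.8 and 52.0 CPM with 915, against 44.3, 43.7 and 43.8 CPM with DMSO. The DMSO values were nearly equal and all 915 values were above them, a log2 difference of 0.28 ± 0.0544 (edgeR adjusted p = 6.30e-04). The channel gene Timm22 rose 1.25-fold (37.0 ± 0.887 CPM with 915 and 30.6 ± 3.10 CPM with DMSO). In TIM23, Timm21 (ENSRNOG00000015142), which links the translocase to the TOM complex, had 36.6, 39.4 and 37.3 CPM with 915 and 29.7, 28.0 and 29.2 CPM with DMSO. It was 1.35-fold higher without overlap (0.43 ± 0.0611, edgeR adjusted p = 4.41e-05). The channel subunit Timm17a rose 1.4-fold (79.2 ± 4.54 CPM with 915 and 58.6 ± 5.43 CPM with DMSO) and the receptor Timm50 1.27-fold. The row named Timm17b (ENSRNOG00000025156) held 0.968, 0.550 and 0.935 CPM with 915 and 0.791, 0.987 and 0.633 CPM with DMSO. Its groups overlapped (0.08 ± 0.327, edgeR adjusted p = 0.851).

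The import motor pulls the chain inwards by cycles of mitochondrial Hsp70. Pam16, which regulates the J-protein of the motor, rose 1.42-fold (55.0 ± 4.28 CPM with 915 and 40.0 ± 2.60 CPM with DMSO), and Timm44, which tethers Hsp70 to the channel, 1.24-fold. Grpel1 and Grpel2 encode nucleotide exchange factors of that Hsp70. Grpel1 (ENSRNOG00000006593) had 77.9, 76.1 and 79.2 CPM with 915, against 57.0, 60.5 and 54.4 CPM with DMSO. All 915 values were above all DMSO values, a log2 difference of 0.49 ± 0.0566 (edgeR adjusted p = 6.43e-06). Grpel2 had 16.7, 16.9 and 14.2 CPM with 915 and 15.0, 15.4 and 15.1 CPM with DMSO. The Grpel2 groups overlapped, and the change of 0.12 ± 0.0861 did not pass (edgeR adjusted p = 0.277). The promoters of both held 1 match each to the NRF-1 and ETS letters, and are shown as those of a pair whose ratio is described further on. Capitals mark CCGGAAG or its reverse complement, and nearest the start the NRF-1 match, in Grpel1 (GRCr8 chr14:78522869-78523118, minus strand) and Grpel2 (GRCr8 chr18:57450409-57450658, minus strand).
Grpel1: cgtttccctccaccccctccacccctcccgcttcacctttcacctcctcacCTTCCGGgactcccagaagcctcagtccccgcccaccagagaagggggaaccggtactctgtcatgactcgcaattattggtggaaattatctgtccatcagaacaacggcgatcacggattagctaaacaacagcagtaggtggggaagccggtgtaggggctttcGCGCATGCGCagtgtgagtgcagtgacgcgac
Grpel2: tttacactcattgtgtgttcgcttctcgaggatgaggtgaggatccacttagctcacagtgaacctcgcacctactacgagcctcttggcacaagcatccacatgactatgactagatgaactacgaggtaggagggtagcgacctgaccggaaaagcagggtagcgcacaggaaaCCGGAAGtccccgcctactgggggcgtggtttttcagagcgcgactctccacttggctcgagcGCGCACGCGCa

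Both subunits of the matrix processing peptidase rose. Pmpcb, the catalytic subunit, had 122.9, 122.3 and 122.3 CPM with 915, against 100.6, 103.1 and 97.0 CPM with DMSO, a log2 difference of 0.34 ± 0.0479 (edgeR adjusted p = 4.38e-05). Pmpca, the substrate-binding subunit, had 74.9, 74.5 and 79.5 CPM with 915 and 69.0, 71.1 and 69.3 CPM with DMSO. The groups did not overlap for either, and the Pmpca change was 0.18 ± 0.0528 (edgeR adjusted p = 0.0122). Its call was lost without 915 library 3 (edgeR adjusted p = 0.0514) or DMSO library 1 (0.0531) and on table totals without TMM (0.0677).

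Of the 5 MICOS genes 4 rose. Chchd3 (ENSRNOG00000013211), which bridges MICOS to SAM, had 187.4, 187.2 and 192.3 CPM with 915, against 138.5, 135.3 and 137.1 CPM with DMSO. Both groups were tight and far apart, with a log2 difference of 0.51 ± 0.0444 (edgeR adjusted p = 3.45e-07). The core subunit Immt (mitofilin) rose 1.19-fold (173.1 ± 6.30 CPM with 915 and 150.8 ± 1.39 CPM with DMSO). Minos1, now called Micos10, which bends membranes at cristae junctions, rose 1.22-fold (152.1 ± 3.55 CPM with 915 and 129.2 ± 14.7 CPM with DMSO). MICOS also holds apolipoprotein O and a relative of it, encoded by Apoo and Apool. Apoo (ENSRNOG00000046918) had 28.6, 31.3 and 28.6 CPM with 915 and 19.6, 21.5 and 21.1 CPM with DMSO, a rise of 0.56 ± 0.0717 on the log2 scale (edgeR adjusted p = 1.78e-05). Apool had 20.6, 17.9 and 18.4 CPM with 915 and 22.2, 16.2 and 19.9 CPM with DMSO. Its groups overlapped fully, and its log2 fold change of 0.02 ± 0.102 (edgeR adjusted p = 0.913) turned to -0.04 without TMM scaling.

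Of the genes that share the name patterns but serve other steps, Timmdc1 and Chchd1 rose and kept their calls in every alternative. Timmdc1 (ENSRNOG00000002999), an assembly factor of respiratory complex I, had 35.8, 34.8 and 36.2 CPM with 915, against 23.5, 26.2 and 24.6 CPM with DMSO (0.57 ± 0.0662, edgeR adjusted p = 6.26e-06). Chchd1, a protein of the mitochondrial ribosome, had 48.4, 44.6 and 40.4 CPM with 915 and 34.0, 39.8 and 38.0 CPM with DMSO, 1.23-fold higher and with the closest values, 40.4 and 39.8 CPM, nearly touching (edgeR adjusted p = 5.45e-03). Chchd5 rose 1.17-fold (edgeR adjusted p = 0.0470), a call kept in 1 of 10 alternatives, that without DMSO library 1. The adjusted p was 0.0544 to 0.186 without any other library, with DESeq2, on table totals, with no filter and with the replicate block. Chchd7 did not pass (0.24 ± 0.105, edgeR adjusted p = 0.0742). It passed without 915 library 2 or DMSO library 2 (adjusted p = 0.0397 and 0.0287).

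**Figure D2:**
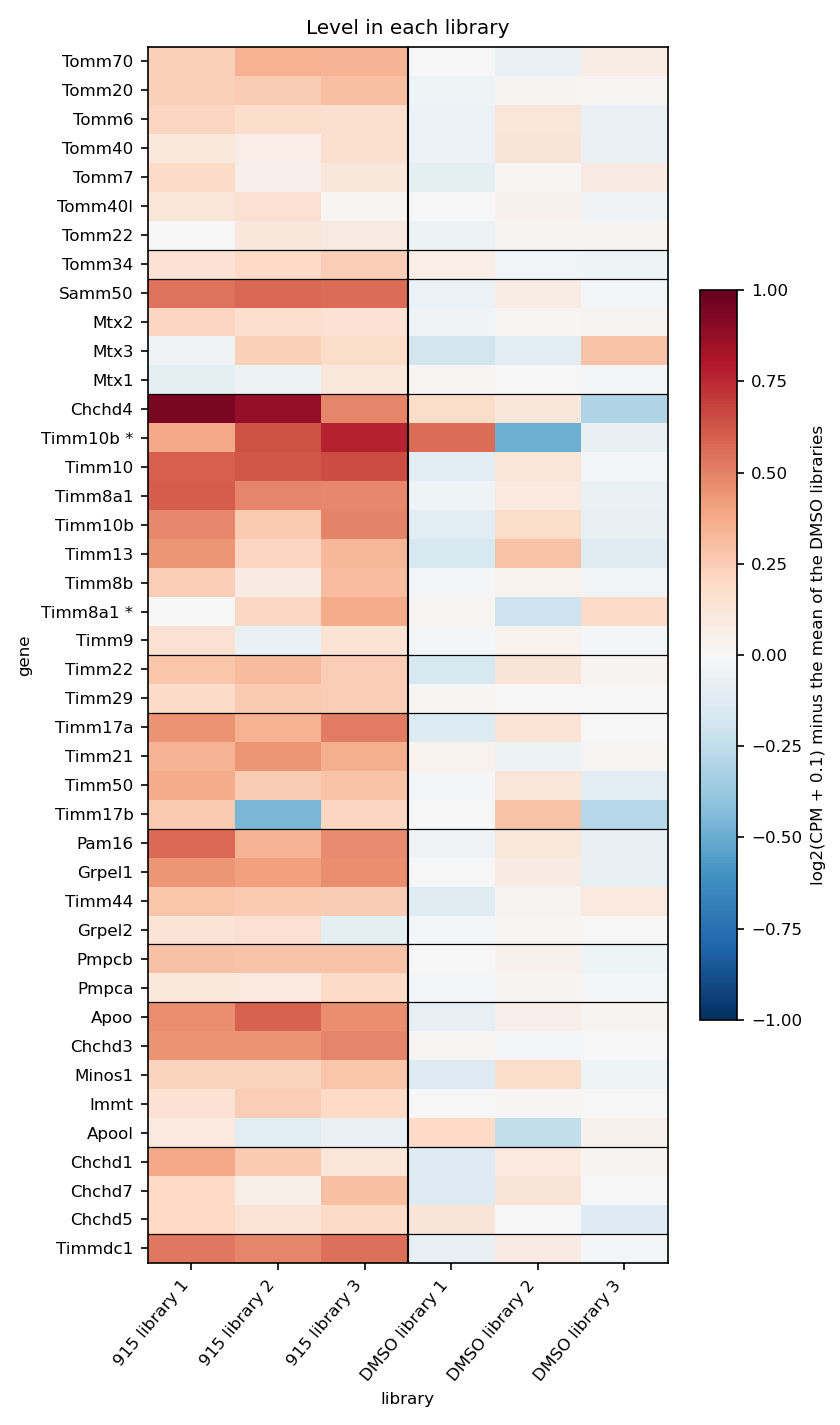
Level of each tested gene in every library, as log2(CPM + 0.1) minus the mean of the DMSO libraries, with 915 libraries on the left and genes grouped by role as in the plot of fold changes. Most rows are red in all 915 libraries, and within the DMSO group library 2 is the most often red.

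DMSO library 2 held the highest DMSO value in 27 of the 42 tested genes (64.3%), against 32.9% of all genes tested. The 915 libraries shared the highest values more evenly, with 15, 11 and 16 genes for libraries 1 to 3. Without DMSO library 2 the median log2 fold change was 0.33 and 31 genes rose. What sets this library apart in these genes was not tested.

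Pairs of related genes were compared with each other. Of 14 pairs listed, 11 could be formed, and the log2 ratio of their levels (CPM + 0.1) was compared over libraries. The change of such a ratio does not depend on gene length, while the ratio itself does. The Timm9 to Timm10 ratio was -1.31, -1.55 and -1.38 in 915 libraries and -0.77, -0.95 and -0.85 in DMSO libraries, without overlap. Its change was -0.55 ± 0.0882 (SE, exact two-sided permutation p = 0.1, the smallest that 3 against 3 libraries allow, adjusted p = 0.183 over the 11 pairs). Another 5 pairs had the same exact permutation p and no overlap, and so none of the 11 can pass a threshold of 0.05. The Apoo to Apool ratio changed by 0.53 ± 0.194, Grpel1 to Grpel2 by 0.37 ± 0.101, Timm8a1 to Timm8b by 0.32 ± 0.0792, Mtx1 to Mtx2 by -0.18 ± 0.0816, with its closest values near -0.36 in both groups, and Pmpca to Pmpcb by -0.16 ± 0.0367. The groups overlapped for the ratios Tomm20 to Tomm70 (-0.04 ± 0.0531), Tomm40 to Tomm40l (0.01 ± 0.0832), Timm13 to Timm8b (0.12 ± 0.134), Mtx1 to Mtx3 (-0.14 ± 0.170) and Timm17a to Timm17b (0.43 ± 0.237). Single libraries moved some of these: Timm13 to Timm8b was 0.04 without DMSO library 1 and 0.24 without DMSO library 2. The change of Mtx1 to Mtx3 was -0.04 without DMSO library 1, -0.06 without 915 library 2, -0.09 without DMSO library 2 and -0.29 without DMSO library 3. The change of Timm17a to Timm17b was 0.24 without 915 library 2, and that of Tomm20 to Tomm70 lay between -0.07 (without 915 library 1 or DMSO library 3) and 0.00 (without DMSO library 2).

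**Figure D3:**
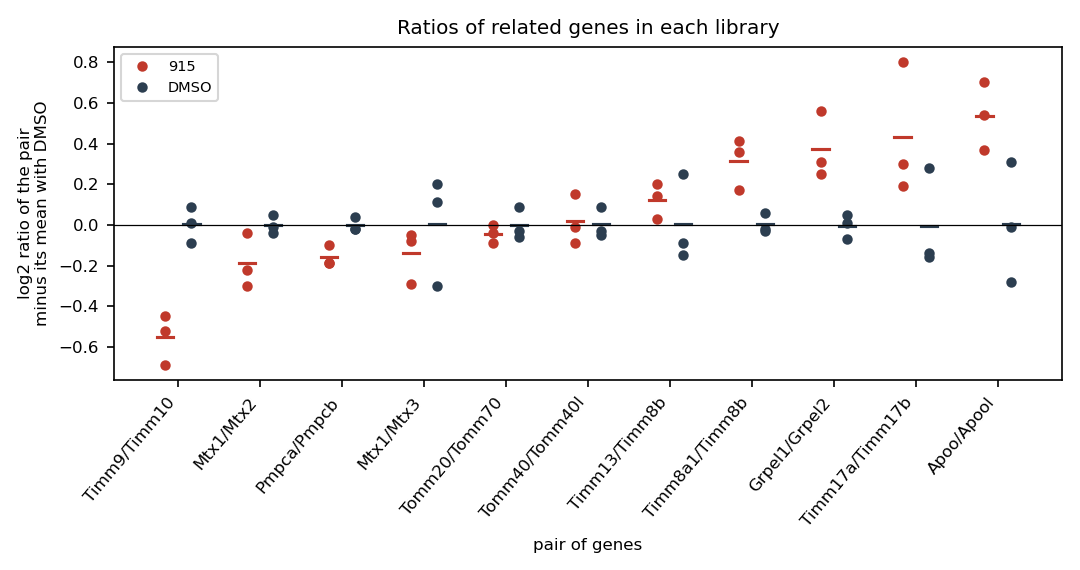
Log2 ratio of each pair in every library, minus its mean with DMSO, ordered by change; 915 libraries are red and stand left of the DMSO libraries, and bars mark means. The Timm9 to Timm10 ratio is lowest with 915, at a change of -0.55, and the Apoo to Apool ratio highest, at 0.53.

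Symbols in the deposited table did not always match the current annotation. Of the 43 genes 42 matched RefSeq (GRCr8), 39 by Entrez number and 3 by symbol. The row named Chchd4 (ENSRNOG00000033038) carries the number of a pseudogene, Chchd4-ps1. It held 1.99, 1.90 and 1.43 CPM with 915 and 1.14, 1.08 and 0.785 CPM with DMSO, without overlap. Its log2 fold change, 0.86 ± 0.255, was the highest of the 42 (edgeR adjusted p = 0.0118), but the call was lost without 915 library 1 (adjusted p = 0.0520) or DMSO library 3 (0.0558). A scarce row of Timm10b (ENSRNOG00000000320) had 0.523, 0.642 and 0.713 CPM with 915 and 0.605, 0.241 and 0.354 CPM with DMSO. A scarce row of Timm8a1 (ENSRNOG00000043480) had 1.62 to 2.14 CPM with 915 and 1.4 to 1.87 CPM with DMSO. Both overlapped and did not pass (log2 fold changes 0.69 ± 0.393 and 0.25 ± 0.220). For Timm10b the change was 1.11 without DMSO library 1 and 0.43 without DMSO library 2, and for Timm8a1 it was 0.15 without 915 library 3 and 0.16 without DMSO library 2. Timm8a2 reached 0.0611 CPM at most, below the level a count of 0 allows, and was not tested. Without these rows and that named Timm17b, which lie under 3 CPM everywhere, 29 of 38 genes rose, a count added after the data were seen. RefSeq names pseudogene copies for 13 of the 43 rows, Tomm20, Tomm7, Apoo, Apool, Timm17a and Chchd3 among them, and how reads shared with copies were counted is not given in the sources used here.

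Matching by Entrez number also brought out 5 protein-coding genes of import and cristae that the table lists under LOC symbols. They lie outside the name rule and were added after the data were seen. Chchd10 (ENSRNOG00000028356, listed as LOC103694872), an abundant cristae-associated protein of heart and muscle mitochondria, had 658.7, 623.5 and 640.7 CPM with 915, against 280.3, 332.6 and 296.1 CPM with DMSO. This 2.19-fold rise (1.13 ± 0.0615, edgeR adjusted p = 2.94e-09) was larger than that of any gene taken by the rule. The row listed as LOC100361898 (ENSRNOG00000022466) carries the number of Chchd4, which encodes the oxidoreductase that drives import into the intermembrane space. It had 16.3, 15.0 and 18.9 CPM with 915 and 10.4, 10.8 and 11.0 CPM with DMSO, 1.62-fold higher (edgeR adjusted p = 4.33e-05). Timm23 (ENSRNOG00000019811), the presequence channel, had 142.1, 144.2 and 151.2 CPM with 915 and 121.7, 125.0 and 121.0 CPM with DMSO, 1.23-fold higher (edgeR adjusted p = 1.39e-04). The groups did not overlap for any of these. These rows of Chchd4 and Timm23 also carry the number of a pseudogene, for Chchd4 the same Chchd4-ps1 as the row named Chchd4. The MICOS gene Micos13 rose 1.28-fold (272.4 ± 5.84 CPM with 915 and 220.2 ± 9.99 CPM with DMSO). The row that carries the number of Timm17b (ENSRNOG00000048613) held 0.367 to 0.615 CPM with 915 and 0.442 to 0.554 CPM with DMSO and did not pass (0.11 ± 0.359). With these rows, 34 of 47 tested genes rose, against 24.3% of all genes tested. The 34 include both rows that carry the number of Chchd4-ps1.

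Of a list of 40 other import, chaperone and cristae genes, 4 symbols were not in the table. Among them was Micos13, which stands there under a LOC symbol and is given above. The symbols found matched 37 genes, since Hspa8 has several Ensembl identifiers. Of the 37, 27 rose (73.0%) and 0 fell, with a median log2 fold change of 0.24. Of all genes tested, 24.3% rose and 25.5% fell. Cox17, the copper chaperone that enters mitochondria through the oxidative relay, had 141.1, 142.5 and 153.0 CPM with 915 and 71.6, 78.8 and 75.8 CPM with DMSO (1.00 ± 0.0566, edgeR adjusted p = 4.19e-09). Hspa9, the mitochondrial Hsp70 of the motor, had 580.2, 582.9 and 628.3 CPM with 915, against 422.0, 410.5 and 418.8 CPM with DMSO (0.57 ± 0.0469, edgeR adjusted p = 2.25e-07). Dnlz, which keeps that Hsp70 soluble, rose 1.48-fold. All of these were without overlap. The smallest rises called were of the chaperone genes Trap1, Hspd1 and Hsp90ab1 (1.10-fold, 1.13-fold and 1.14-fold). Trap1 lost its call without 915 library 1 or 3 or DMSO library 1 or 3 (edgeR adjusted p up to 0.1), on table totals (0.179) and with the replicate block (0.0871). For Mtch1, named after its values were seen, every 915 library lay below every DMSO library, as in 32.8% of all genes tested. Its change of -0.08 ± 0.0497 did not pass (edgeR adjusted p = 0.192).

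**Figure D4:**
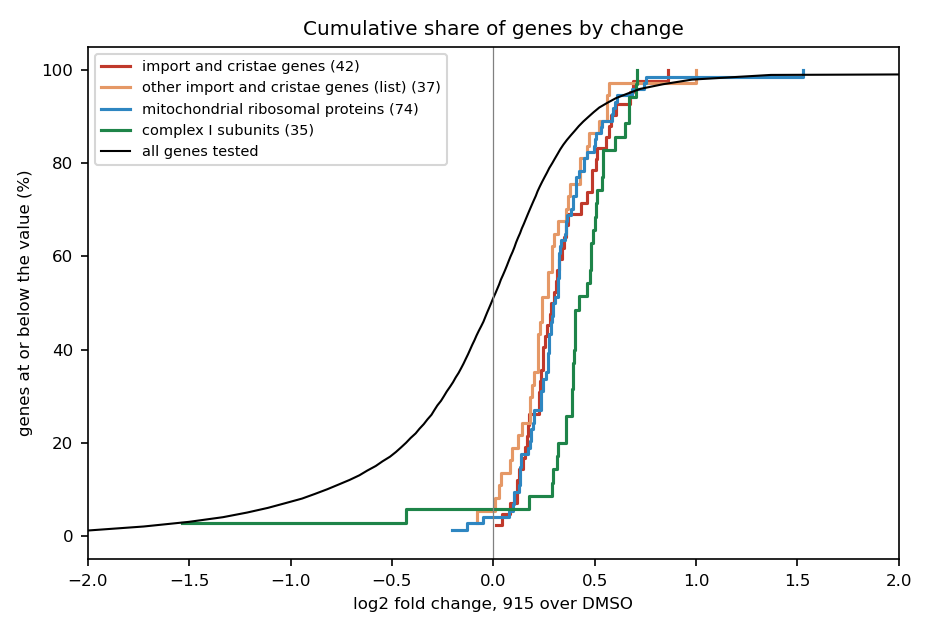
Cumulative share of genes, in percent, by log2 fold change of 915 over DMSO, for import and cristae genes, the list of other import and cristae genes, mitochondrial ribosomal proteins, complex I subunits and all genes tested. The curve of import and cristae genes lies right of that of all genes (medians 0.29 and -0.01) and along that of the ribosomal proteins.

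In the same fit, 58 of 74 genes of mitochondrial ribosomal proteins rose (78.4%) and 0 fell, with a median of 0.30. Of 35 genes taken by symbol as complex I subunits, 32 rose (91.4%), with a median of 0.42. Of all genes tested, 24.3% rose. The gene of the complex I set that fell was Ndufa4l2, which entered by its symbol alone and was named after its values were seen. Import and cristae genes, at 30 of 42 and a median of 0.29, stood near the ribosomal proteins and below complex I in these counts. No test of a difference between these sets was made.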

How the data were processed

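RNA sequencing counts of 6 libraries were analysed. STAR 2.5.1a, Subread featureCounts 1.4.6-p5 and the build Rnor_6.0 are named in the submitters' processing notes. For strand and for reads with several positions, the settings were not given in the sources used here. The deposited count table held 22641 rows, and 993 were dropped because an earlier row had the same Ensembl identifier and equal counts (2 of the 45 rows of the genes described). The deposited CPM values equal those counts divided by 1 total per library, of which the table holds 93.1% to 93.7%. Counts were filtered with filterByExpr (14253 genes kept), scaled by TMM and fitted with edgeR 4.0.16 (R 4.3.3), quasi-likelihood, on group alone. Tests were two-sided, p-values were adjusted by Benjamini-Hochberg across the whole tested table, and calls used 0.05. The standard error is the log2 fold change divided by the square root of F. What edgeR names the biological coefficient of variation was 6.84%, and it rests on the same spread among libraries. The procedure was tested on simulated counts. Alternatives were DESeq2 1.42.0, table totals without TMM, no filter, the replicate number as a block, and leaving out each library. No libraries of a group were copies: their counts differed beyond counting error (chi-square over degrees of freedom 5.45 to 11.6).

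The genes, lists, pairs and motifs were chosen with earlier results of these data known. All genes found by the rule are named. Values in every library are given for the gene with the smallest p in each role, the 3 highest and 3 lowest changes and pairs whose ratios do not overlap. Of the other list, the 3 highest and 3 lowest changes among genes called are named. RefSeq GRCr8 supplied names and promoters (27457 genes, the first start listed).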

Additional observations from a re-analysis of the deposited data

How the results depend on the processing

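The count of genes called higher was 30 and ranged from 27 to 31 over the 10 alternatives, and no alternative called any of them lower. DESeq2 called 28, table totals without TMM 27, and no filter 29. Of the 30 calls, 25 were kept in every alternative, and the others are Chchd5, Timm13, Pmpca, Tomm7 and the row named Chchd4. The median log2 fold change of 0.29 was 0.24 on table totals, where the median of all genes was -0.07, and 0.26 to 0.33 when a library was left out. In the other list, 27 genes were higher, against 23 to 27 in the alternatives, and 1 was lower on table totals against 0. Changes that turned sign, none of them called, were Apool (-0.04 on table totals, -0.05 without 915 replicate 1, -0.09 without DMSO replicate 2; highest 0.12), Mtx1 (-0.02 on table totals and without 915 replicate 3; highest 0.08 when a library was left out), the row named Timm17b (-0.05, -0.02 and -0.06 without 915 replicate 1, 915 replicate 3 or DMSO replicate 3), the row with the number of Timm17b (-0.06 without 915 replicate 3), and the ratio of Tomm40 to Tomm40l (-0.05 and -0.01 without 915 replicate 3 or DMSO replicate 1; highest 0.07). The cause was not tested. Same-numbered libraries did not deviate together (correlations -0.0338, -0.111 and -0.0896), so no pairing by number was seen. Whether such libraries share an isolation cannot be read from so few. With the replicate block 28 genes rose and none fell (median 0.30), as did 24 genes of the other list. No library correlated best with its own number. Summed levels of the genes were 2717 CPM with 915 and 2254 CPM with DMSO when scaled by table sums. In the 200 bases before the start alone, ETS letters stood in 45.7% of the promoters, against 8.81% of the promoters of protein-coding genes. Genes under 3 CPM, read from 0 to 87 counts, allow no firm statement at this depth.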
